A study of Mus musculus with 95 samples.

Results

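Gene expression in the sciatic nerve (SCN) of diabetic mice fed pioglitazone was compared with that of untreated non-diabetic mice. The comparison asked what still differed from the healthy nerve after treatment, and what differed only with it. It used 12 of the 95 libraries of the series, chosen by their sample titles: 6 SCN libraries from db/db PIO mice and 6 from db/+ mice. All mice were male, of the strain BKS.Cg-m +/+ Leprdb/J, and their tissues were taken at 16 weeks of age. The db/+ mice carry the leptin receptor mutation on a single chromosome and received no agent. The db/db mice carry it on both, in every cell of the body, and become obese and diabetic. The PIO group received 15 mg/kg pioglitazone for 11 weeks, from 5 weeks of age. Genotype and drug both differ between the groups compared. The 6 untreated db/db libraries of the same tissue are therefore given beside them for many genes, and the 6 db/+ PIO libraries for some.

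The sciatic nerve is a bundle of sensory, motor and sympathetic axons. Schwann cells wrap the larger axons in myelin and hold the smaller ones in bundles, and fibroblasts, vessels, macrophages and mast cells lie between them, with fat around the sheath. Pioglitazone activates PPARγ, a nuclear receptor that pairs with the retinoid X receptor and drives lipid storage in fat cells, and it is given in type 2 diabetes because it raises insulin sensitivity. In long-standing diabetes the distal parts of sensory axons degenerate.

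Values are FPKM, fragment counts scaled to transcript length and to the mapped total of the library, with 1 value per gene symbol and library. The files list 25407 symbols, of which 8291 to 10432 were above 0 in the db/+ libraries and 7467 to 8903 in the db/db PIO libraries. Read totals were not used here, so the depth behind each library's values is not given. An exact 0 was often no low level. Eef1a1, an elongation factor that every cell uses, was at 0 in 5 of 6 db/+ and 4 of 6 db/db PIO libraries and had a median near 1684 and 1683 in the others, and Tbp, a general transcription factor, was at 0 in all 12. For 3549 genes whose median FPKM above 0 was 10 or more, 43.1% of db/+ and 56.1% of db/db PIO entries were at 0. Each 0 was therefore read as missing, and a test required 3 or more values on either side. Medians and ranges cover the libraries with a value, with n given where it is under 6.

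Skeletal muscle transcripts separated the db/db PIO libraries from each other. Tnnc2, a troponin of fast muscle, was at 64.3, 3.59, 235, 3.96, 78.5 and 18.8 in db/db PIO replicates 1 to 6 and at 1.87 to 6.55 in db/+. Replicates 1, 3 and 5 held the 3 highest values, and results that touch muscle-expressed genes are also given without them, an alternative chosen after seeing the data. Of the 16 markers of myelinating Schwann cells in the files, 11 were at 0 in all 12 libraries, Pmp22 among them, so the check of the tissue rests here on Mbp, a myelin protein, with values given below. Lepr, the mutated gene, was at 4.02 (2.25 to 6.57, n = 5) in db/+ and 1.58 (1.14 to 2.33) in db/db PIO, -0.83 on the log2 scale (SE 0.20, adjusted p = 0.00288). The ranges overlapped slightly. The mutation alters the splicing of a receptor isoform, which a value per gene does not resolve.

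Treated diabetic nerve differed from healthy nerve in 1426 of the 4485 genes tested, or 31.8% (limma on log2(FPKM + 1), Benjamini-Hochberg adjusted p under 0.05). Of these differentially expressed genes (DEGs), 793 were higher in db/db PIO (17.7% of the genes tested) and 633 were lower (14.1%). A fold change of at least 2 was reached by 215 of the higher and 37 of the lower DEGs. Fold changes are on the log2(FPKM + 1) scale, which understates those of genes near or under 1 FPKM. Over all genes tested the log2 fold change had a median of 0.02. All 1426 DEGs had the same sign whichever library was left out, where they could still be tested. They were selected in these same libraries, so this is a weak check. With 1 library left out 1139 to 1319 of them kept their call, and some of the others could no longer be tested. With each 0 entered as a value, 157 genes were called. Of the other genes among the 7627 that entered the fit, 1706 had too few values in db/db PIO only, 478 in db/+ only and 958 in both. Lists of genes are read below against these shares and this median. Genes had to reach 1 FPKM in 5 or more of the 24 SCN libraries, a filter that some genes pass only through the groups where they are high, so list counts and medians cover the members that passed, and values without the filter are given for some lists whose median moved with it.

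**Figure D1:**
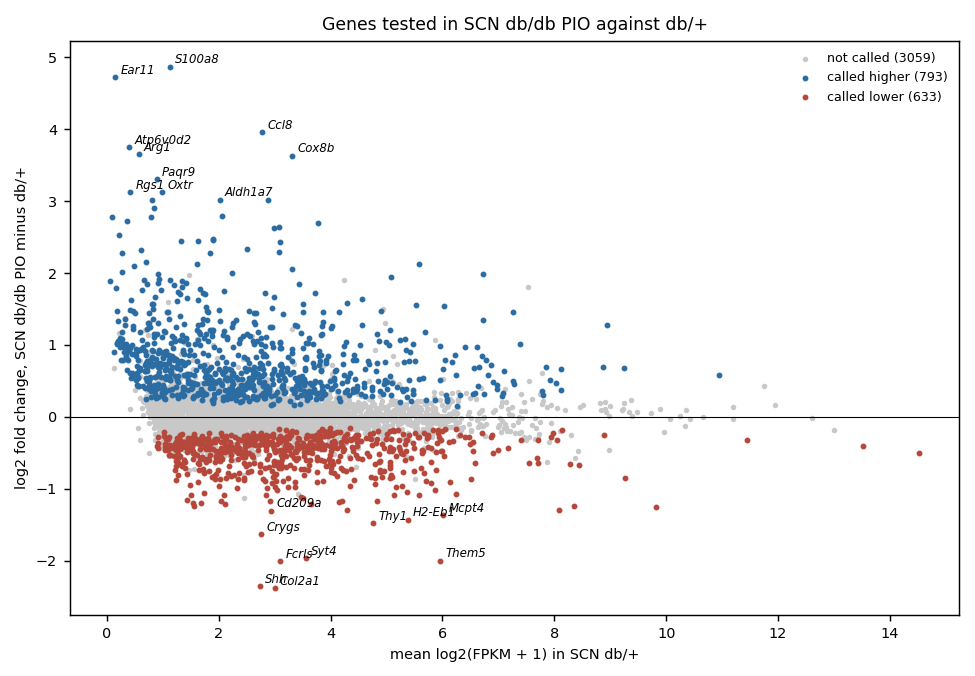
Each point is 1 of 4485 genes tested, with the mean log2(FPKM + 1) of the db/+ SCN libraries on the x axis and the log2 fold change of db/db PIO minus db/+ on the y axis. Blue marks 793 genes called higher and red 633 called lower, and the 10 largest rises and falls are named, from S100a8 at 4.87 to Col2a1 at -2.39.

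The largest rise was in S100a8 and the next in Ear11, both genes associated with granulocytes. S100a8, a calcium-binding alarmin of neutrophils and monocytes (mm9, chromosome 3, 90472993 to 90473956), was at 0.27, 1.75, 1.45, 1.91 and 0.98 FPKM in the 5 db/+ libraries with a value. In db/db PIO it was at 60.3, 58.4, 51.5, 36.3, 42.01 and 218. The groups were far apart, with replicate 6 of db/db PIO well above the rest, and the log2 fold change was 4.87 (SE 0.57, adjusted p = 3.31e-06). S100a9, which encodes its binding partner, was at 0.17, 2.04, 0.54, 1.78, 2.92 and 0.61 in db/+ and at 4.22, 3.54, 0.88, 0.72, 4.25 and 185 in db/db PIO, high in the same replicate 6 alone, and did not pass the test (log2 fold change 1.60, SE 0.97, adjusted p = 0.219). Ear11 encodes an eosinophil-associated ribonuclease that alternatively activated macrophages also make. It was at 0.15, 0.1 and 0.08 in the 3 db/+ libraries with a value and at 23.6, 30.2, 27.6, 28.5, 38.3 and 23.9 in db/db PIO. It rose by 4.72 (SE 0.36, adjusted p = 1.37e-08), without overlap. Ear2, of the same family, rose from 1.605 (0.41 to 3.75) to 13.02 (6.11 to 20.6, n = 5). Genes of this family are close copies, so reads may be shared between them. Of 16 markers of neutrophils and eosinophils, 4 could be tested, and S100a8, Ear11 and Ear2 were called higher and none lower, with a median log2 fold change of 3.59. Ear11, under 1 FPKM in db/+, passed the filter through other groups, and without the filter 8 markers were tested, 3 of them higher, with a median of 1.28.

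**Figure D2:**
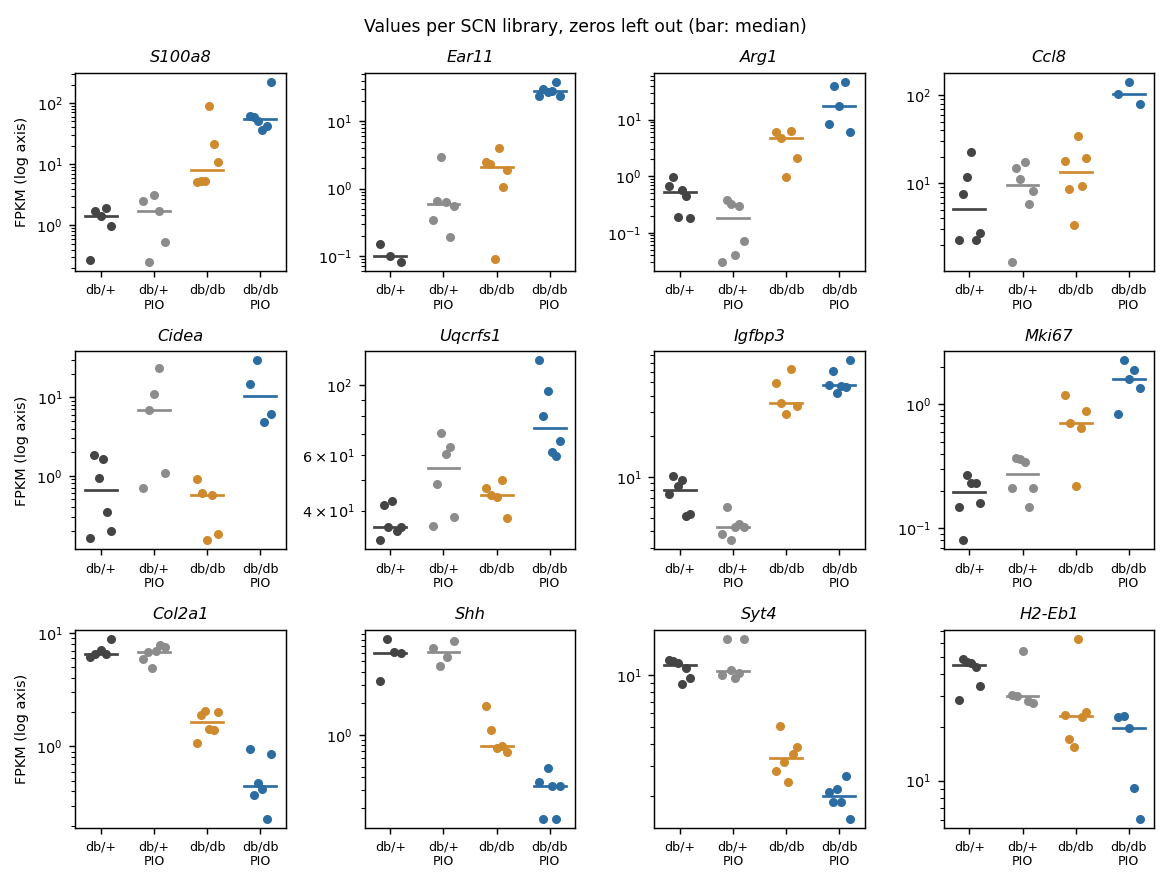
Points are single SCN libraries of the 4 groups with a value above 0, in FPKM on a log axis, and bars are medians. In db/db PIO, S100a8, Ear11, Arg1, Ccl8, Cidea, Uqcrfs1, Igfbp3 and Mki67 lay above every db/+ value, and Col2a1, Shh, Syt4 and H2-Eb1 lay below.

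Arg1 and the lipid-associated macrophage genes that could be tested rose. Arg1, the arginase of alternatively activated macrophages, was at 0.18 to 0.97 in db/+ (median 0.515). In the 5 db/db PIO libraries with a value it was at 8.25, 39.6, 17.4, 45.9 and 5.97. All of these lay above db/+, and the log2 fold change was 3.65 (SE 0.41, adjusted p = 1.58e-06). All 4 lipid-associated macrophage genes that could be tested, of 15 in the files, were called higher, with a median of 1.67, and 2 to 4 were with 1 library left out. Atp6v0d2, a proton pump subunit, rose from 0.29 (0.17 to 0.5, n = 5) to 15.5 (3.77 to 38.3, n = 5), and the integrin gene Itgax from 0.12 (0.02 to 0.22, n = 5) to 3.92 (1.06 to 4.81, n = 3). Cstb, an inhibitor of cathepsins, rose from 64.3 (55.3 to 73.3) to 190.0 (149 to 241, n = 5), and the lysosomal gene Creg1 from 24.6 (23.4 to 25.7, n = 5) to 38.9 (38.1 to 51.7, n = 3). None of these genes overlapped between the groups. Atp6v0d2 and Itgax, under 1 FPKM in db/+, passed the filter through other groups, though without the filter the same 4 were tested and called higher. With each 0 entered as a value, 12 genes of this list were tested, 1 of them called higher and 2 lower. Among 7 general macrophage markers tested, 3 were called higher and 1 lower (median 0.49), with 2 to 4 higher when 1 library was left out. Lyz2, the lysozyme of myeloid cells, rose from 139 (132 to 209.9, n = 4) to 414 (306 to 617, n = 4) and Cd14, a lipopolysaccharide coreceptor, from 7.93 (5.08 to 11.3) to 12.1 (10.1 to 14.9). Rgs1, which shortens chemokine receptor signals, rose from 0.29 (0.09 to 0.92) to 14.6 (2.62 to 20.8), by 3.13 (SE 0.32). In RNA from whole tissue, a different number of cells of a type and a different amount of RNA per cell cannot be told apart.

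Some chemokine genes rose. Of 15 tested, 6 were called higher and none lower (median 0.70), and 3 to 6 were higher with 1 library left out. The other 9 did not pass. Ccl8, which draws monocytes and eosinophils, was at 2.27, 7.61, 11.8, 22.9, 2.26 and 2.76 in db/+ and at 104, 141 and 80.3 in the 3 db/db PIO libraries with a value. The lowest of these stood above the highest of db/+, and the log2 fold change was 3.96 (SE 0.69, adjusted p = 2.34e-04). The myeloid chemokines Ccl6 and Ccl9 rose from 15.7 (10.6 to 29.7, n = 4) to 53.6 (35.8 to 56.97, n = 3) and from 4.66 (4.33 to 8.89, n = 5) to 12.6 (12.2 to 19.5, n = 3). Cxcl1, which draws neutrophils, rose from 1.24 (0.1 to 1.63) to 2 (1.22 to 3.54) with overlapping ranges. Ccl3, a macrophage inflammatory protein, rose from 0.19 (0.08 to 0.42, n = 5) to 1.59 (0.42 to 2.09), the groups meeting at 1 value. The receptors of the complement fragments C3a and C5a, C3ar1 and C5ar1, rose from 1.51 (1.18 to 2.52) to 8.75 (4.37 to 14.4, n = 5) and from 3.44 (3.16 to 6.08) to 12.4 (7.7 to 16.8, n = 5).

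Class II antigen presentation genes went the other way. Of 10 class II MHC genes, 3 passed the filter and could be tested, and these were lower, with a median of -1.09, also with any 1 library left out. Without the filter 6 were tested, 3 of them lower, with a median of -0.62. H2-Eb1, a class II beta chain, was at 28.5, 48.5, 46.6, 46.1, 43.6 and 34.4 in db/+ and at 22.8, 23.3, 19.8, 9.08 and 6.09 in 5 db/db PIO libraries. The groups did not overlap, and it fell by 1.44 (SE 0.33, adjusted p = 0.00206). H2-Aa and H2-Ab1 fell from 34.5 (26.9 to 40.95) to 21.7 (5.49 to 26.96, n = 5) and from 44.7 (29.5 to 49.3) to 21.02 (9.31 to 32.3), both with overlapping ranges. Cd209a, a lectin of dendritic cells, fell from 6.43 (3.89 to 10.3, n = 5) to 2.1 (1.85 to 2.4). Fcrls, a scavenger receptor-like gene of resident macrophages, fell from 7.81 (5.23 to 10.8, n = 5) to 0.945 (0.57 to 2.3), a change of -2.01 (SE 0.21, adjusted p = 4.51e-07). In db/+ PIO, Cd209a was at 2.94 (2.67 to 4.32, n = 5) and Fcrls at 4.225 (3.33 to 5.14). Of 10 interferon-stimulated genes tested, none was called higher and 3 were lower (median -0.37), 1 to 4 with 1 library left out. Ifit1, which binds viral RNA, fell from 2.85 (2.51 to 3.96) to 1.16 (1.06 to 1.63, n = 5).

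Mast cell genes split. The granule proteases Mcpt4 and Cpa3 fell from 68.4 (47.5 to 79.7, n = 3) to 20.9 (16.9 to 43.4) and from 18.7 (10.8 to 24.1, n = 5) to 5.87 (5.29 to 13.8), the latter with overlapping ranges. Kit, the stem cell factor receptor, rose from 1.75 (1.25 to 2.45) to 4.05 (3.27 to 4.68). Hdc, which makes histamine, rose from 0.975 (0.63 to 1.87) to 2.04 (1.04 to 2.73) with overlapping ranges. In all, 3 of 8 mast cell markers tested were called higher and 2 lower, with a median of -0.14. With 1 library left out 2 to 4 were higher and 1 to 3 lower, and the median ran from -0.23 to 0.30. Thy1, a surface protein of neurons, fibroblasts and T cells, fell from 22.7 (21.1 to 37.4, n = 3) to 9.29 (6.19 to 11.1, n = 4).

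The myelin gene Mbp and several genes of immature Schwann cells were lower in the treated diabetic nerve. Mbp was at 13038, 12283, 12198, 10695, 11342 and 11379 in db/+ and at 7889, 8005, 8089, 9432, 9932 and 10258 in db/db PIO. The groups did not overlap, and it fell by 0.41 (SE 0.09, adjusted p = 0.00151). Its call ended under quantile normalization, at -0.58 (adjusted p = 0.1204), and without a filter on low values. Of 9 genes of immature and repair Schwann cells tested, 5 were called lower and 1 higher (median -0.41), and 3 to 5 were lower with 1 library left out. Without the filter 5 of 12 were lower, with a median of -0.08. Ngfr, the p75 neurotrophin receptor, fell from 21 (13.8 to 22.6, n = 5) to 9.36 (7.49 to 11.5), and Gfap, an intermediate filament of non-myelinating Schwann cells, from 2.63 (2.49 to 4.53, n = 5) to 1.66 (1.5 to 1.92). Neither overlapped. Pou3f1, a transcription factor of Schwann cells before myelination, was at 11.8 (8.67 to 13.02) and 8.26 (7.2 to 10.1), a log2 fold change of -0.41 (adjusted p = 0.02299). Its call ended without db/db PIO replicate 2, at -0.38 (adjusted p = 0.0513).

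Shh encodes a secreted hedgehog ligand that Schwann cells make (mm9, chromosome 5, 28783355 to 28793641). It was at 3.25, 8.21, 6.13 and 5.98 in the 4 db/+ libraries with a value and at 0.36, 0.16, 0.48, 0.33, 0.16 and 0.33 in db/db PIO. The groups were far apart, and Shh fell by 2.36 (SE 0.19, adjusted p = 9.38e-08). Of 6 hedgehog pathway genes tested, 1 was called lower, Shh, and 3 were called higher (median 0.45, or 0.26 to 0.61 with 1 library left out). Without the filter 9 were tested, with the same numbers of calls and a median of 0.05, and without replicates 1, 3 and 5 none of 3 was higher. Boc, a coreceptor that binds the ligand, rose from 2.13 (1.16 to 3.89, n = 4) to 5.49 (5.07 to 6.13, n = 4), and Gli2, a transcription factor at the end of the pathway, from 1.68 (0.63 to 1.81, n = 4) to 2.87 (2.51 to 3.19, n = 4). Neither overlapped between the groups.

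Few transcripts of axons passed the test. Of 8 tested, 2 were called lower and none higher, with a median of -0.01. Uchl1, a neuronal ubiquitin hydrolase, fell from 86.7 (81.9 to 109, n = 5) to 67.8 (61.03 to 78.4, n = 4), and the neuronal tubulin gene Tubb3 from 7.63 (5.14 to 13.1) to 3.08 (2.2 to 6.54, n = 5), the latter with overlapping ranges. Syt4, a synaptotagmin of vesicle traffic that stood in none of the lists, was at 12.1, 11.9, 11.8, 8.8, 10.9 and 9.6 in db/+ and at 2.13, 1.85, 2.22, 1.87, 2.62 and 1.49 in db/db PIO. It fell by 1.97 (SE 0.14, adjusted p = 7.73e-10), without overlap. None of the 4 perineurial, 3 endothelial and 3 fibroblast markers tested passed, by limma, and Pecam1 and Dcn, which define endothelium and fibroblasts, had too few values to test. The list medians were -0.27, 0.01 and 0.93 in that order, and the fibroblast markers ran from 0.84 to 1.09.

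Genes of extracellular matrix and its turnover changed in both directions. Col2a1, the collagen of cartilage (mm9, chromosome 15, 97806033 to 97835155), had the largest fall among DEGs. It was at 6.15, 6.54, 7.09, 6.52 and 8.96 in 5 db/+ libraries and at 0.94, 0.37, 0.48, 0.42, 0.23 and 0.85 in db/db PIO, -2.39 on the log2 scale (SE 0.13, adjusted p = 4.82e-11). Sox9, a transcription factor that drives Col2a1 in cartilage, fell from 6.38 (4.16 to 7.51, n = 5) to 3.45 (2.07 to 4.1). Of 4 cartilage genes tested, 3 were called lower and none higher (median -0.58), and without the filter 3 of 7 (median -0.09). Vcan, a large proteoglycan, fell from 10.1 (8.28 to 12.5) to 4.17 (3.52 to 4.71) (SE of the log2 fold change 0.08, adjusted p = 2.11e-09). The gelatinase gene Mmp9 fell from 3.26 (1.43 to 6.12) to 0.72 (0.39 to 2.22) with overlapping ranges, while the stromelysin gene Mmp3 rose from 0.475 (0.03 to 1.44) to 4.26 (3.44 to 7.78, n = 5).

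Igfbp3, the main carrier of insulin-like growth factors in blood, was at 7.52, 10.2, 8.58, 9.52, 5.2 and 5.32 in db/+ and at 47.8, 60.6, 42.1, 47.1, 46.5 and 72.6 in db/db PIO. It rose by 2.64 (SE 0.18, adjusted p = 7.73e-10), and it was the one gene called of 4 in its family that could be tested. Nog, a secreted inhibitor of bone morphogenetic proteins, rose from 0.675 (0.37 to 1.57) to 2.105 (1.91 to 3.14), and Tgfb2, a ligand of the TGF-beta receptors, from 1.08 (0.41 to 1.1, n = 5) to 1.73 (1.33 to 2.17, n = 5). Of 11 genes of the TGF-beta and BMP pathways tested, 3 were called higher and none lower, with a median of -0.01. Trib3, a pseudokinase that binds Akt, rose from 1.68 (1.29 to 2.21) to 3.96 (2.54 to 4.33). Oxtr, the oxytocin receptor, rose from 0.94 (0.59 to 1.83) to 16.3 (15.4 to 17.4, n = 3), by 3.12 (SE 0.14). Rap2a, a small GTPase, fell from 55.8 (50.9 to 59.3) to 27.98 (26.8 to 32.4), a change of -0.92 (SE 0.06, adjusted p = 7.73e-10). Hspa5, the main chaperone of the endoplasmic reticulum, fell from 211 (164 to 239.8, n = 4) to 138 (127 to 146, n = 3). Other than Mmp9, none of the genes given with values in this paragraph and the paragraph before it overlapped between the groups.

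Transcripts of heat-producing fat were higher in db/db PIO. Fabp4, the fatty acid carrier of fat cells and macrophages and a known PPARγ target, could not be tested, since it was listed above 0 in 2 db/+ libraries only, at 2874 and 1543. In db/db PIO it was at 16830.2, 12363, 13489, 9349, 10491 and 7230.4. Adipoq, the adiponectin gene, was above 0 in 4 db/+ libraries and listed at 0 in all 6 of db/db PIO, and Pparg itself was listed at 0 in all 12. Of 6 brown adipocyte genes tested, 5 were called higher and none lower, with a median of 1.88, also with any 1 library left out, and without the filter 6 of 7 (median 1.29). Cox8b, a cytochrome oxidase subunit of brown fat and muscle, was at 3.82 to 19.4 in db/+ and at 137, 248, 72.6 and 88.6 in 4 db/db PIO libraries. It rose by 3.63 (SE 0.66, adjusted p = 3.50e-04). Cidea, a lipid droplet protein, rose from 0.65 (0.16 to 1.82) to 10.5 (4.89 to 29.5, n = 4). Fabp3, the fatty acid carrier of muscle and brown fat, was at 1.78 to 3.46 in db/+ and at 65.3, 10.8, 50.03, 4.5, 10.9 and 28.9 in db/db PIO. Otop1, a proton channel, rose from 5.48 (4.79 to 7.44, n = 4) to 13.02 (11.8 to 16.1, n = 4), and the potassium channel gene Kcnk3 from 2.51 (0.5 to 3.13, n = 5) to 5.04 (3.63 to 9.22). None of these 5 genes overlapped between the groups. Ucp1, which uncouples brown fat mitochondria, was listed at 81.97 in replicate 2 of db/db PIO and at 0 in the other 5, and was at 0.11, 0.46 and 0.04 in 3 db/+ libraries.

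Muscle transcripts moved with some of these libraries. Of 7 skeletal muscle markers tested, 3 were called higher, Tnnc2, Ckm and Tcap, with a median of 1.98, and 0 to 4 were with 1 library left out. Without the filter 2 of 9 were, with a median of 0.83. Without db/db PIO replicate 3 all 3 calls ended, at log2 fold changes of 2.18, 1.52 and 1.79 (adjusted p = 0.0794, 0.122 and 0.0567). Those of Tnnc2 and Ckm also ended without replicate 1 (at 2.55 and 2.22) and without replicate 5 (at 2.49 and 1.91). That of Ckm ended too without db/+ replicate 1, 2, 4 or 5, at 2.27, 2.26, 2.16 and 2.19. The 5 muscle markers with values in all 12 libraries summed to 13.01 to 18.2 FPKM in db/+ and to 12.9 to 363 in db/db PIO. With replicates 1, 3 and 5 left out together, and at least 2 values per group, none of the 7 muscle markers was called (median -0.02), while 4 of the 6 brown adipocyte genes were (median 1.41), Cox8b, Cidea, Fabp3 and Otop1. In that fit 782 of 3815 genes were called.

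Most respiratory chain genes that could be tested rose. Rxra, the retinoid X receptor that pairs with PPARγ, rose from 17.2 (15.9 to 20.2) to 29.4 (29.02 to 32.2, n = 4), and Ppargc1b, a coactivator of mitochondrial genes, from 0.47 (0.36 to 0.55) to 1.4 (0.93 to 1.87). Of 9 genes of respiratory complex I tested, 7 were called higher and none lower (median 0.48). Of 11 genes of complexes II to V with cytochrome c, 10 were higher and none lower (median 0.58). With 1 library left out 5 to 8 and 7 to 10 were called, and without replicates 1, 3 and 5 2 of 6 and 6 of 11. Uqcrfs1, the iron-sulfur subunit of complex III, was at 32.2, 41.7, 35.4, 42.9, 34.4 and 35.5 in db/+ and at 120.0, 80.2, 96.2, 61.4, 59.7 and 66.5 in db/db PIO. It rose by 1.06 (SE 0.17, adjusted p = 5.59e-05), and replicates 2 and 4, the lowest in Tnnc2, also lay above all db/+ libraries. Ndufb6 of complex I rose from 103 (95.4 to 112, n = 5) to 183 (147 to 262, n = 5), Cox5a of complex IV from 75.8 (54.2 to 88.96) to 125 (115 to 166, n = 5), and cytochrome c, Cycs, from 18.7 (17.3 to 20.3, n = 4) to 55.9 (48.2 to 73.9, n = 3). None of these overlapped. Hadh, an enzyme of fatty acid oxidation, rose from 70.7 (62.1 to 84.01, n = 5) to 114 (112 to 138, n = 3).

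All 4 glycolytic genes tested were called higher (median 0.58), also with any 1 library left out. Without db/db PIO replicates 1, 3 and 5, 3 of 4 were, with a median of 0.29. Hk2, the hexokinase of insulin-sensitive tissues, rose from 2.2 (1.65 to 3.83) to 7.22 (5.29 to 11.8), and Gapdh from 217 (212 to 234) to 288 (254 to 322, n = 5), the latter not called under quantile normalization. Of 9 antioxidant genes tested, 5 were higher and none lower (median 0.45). Gpx1, which removes peroxides, rose from 157 (134 to 219) to 344 (252 to 428), and Sod2, the superoxide dismutase of mitochondria, from 15.5 (12.4 to 16.4, n = 4) to 21.3 (18.7 to 25.2, n = 5). The sterol synthesis genes Sqle and Cyp51, the only 2 of 16 that could be tested, fell from 63.4 (57.5 to 72.97, n = 4) to 48.4 (35.2 to 49.1, n = 3) and from 36.97 (34.98 to 38.4, n = 4) to 26.9 (24.4 to 27.9, n = 3).

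**Figure D3:**
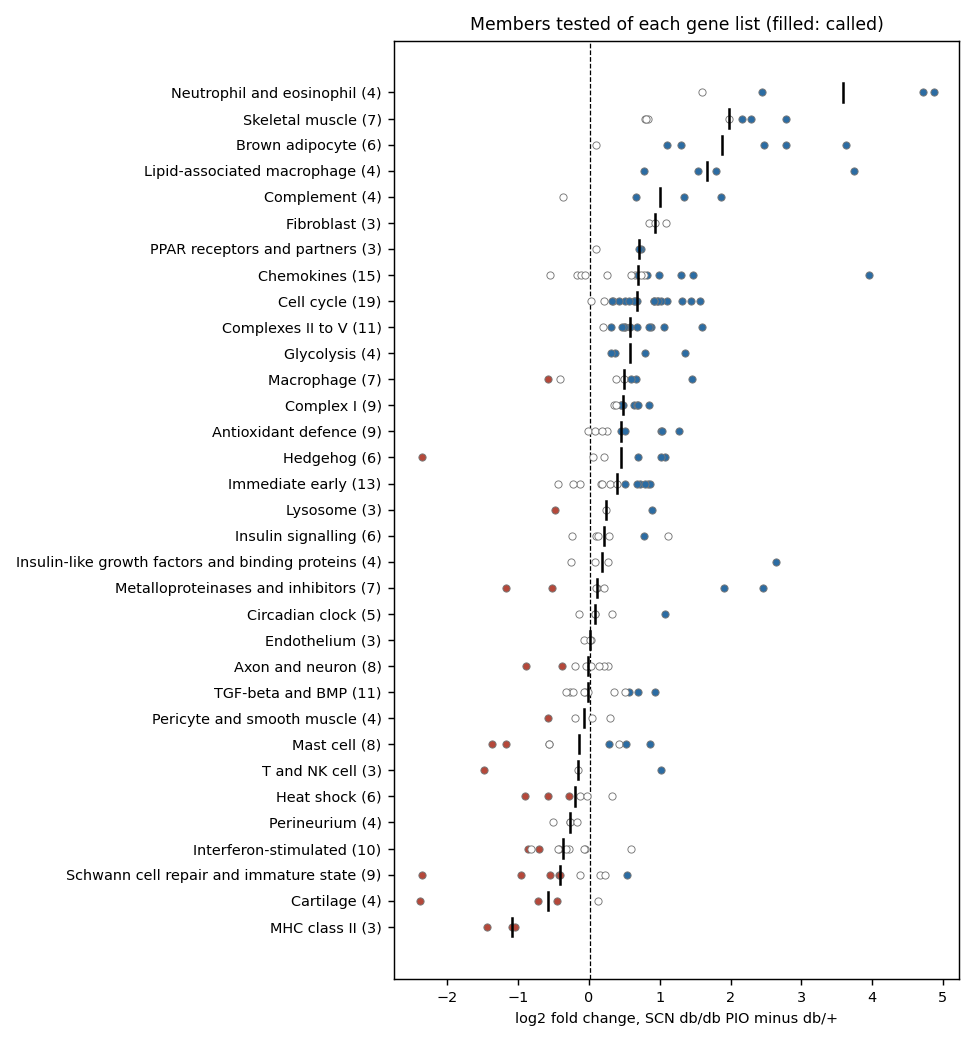
Each point is a gene of the list named on the y axis, with its log2 fold change of db/db PIO minus db/+ on the x axis, for lists with at least 3 genes tested. Filled points passed an adjusted p of 0.05 (blue higher, red lower), ticks are list medians and the dashed line is the median of all genes tested, 0.02. Medians run from -1.09 for class II MHC to 3.59 for neutrophils and eosinophils.

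Cell cycle genes had the most calls of any list, and also the most genes tested. Of 19 tested, 16 were called higher and none lower, with a median of 0.68. With 1 library left out 13 to 16 were higher, and without replicates 1, 3 and 5, 12 of 15 were. Levels were low, and Mki67, Top2a and Ccnb2, under 1 FPKM in db/+, passed the filter through other groups. The count of 16 is therefore partly selected by high values outside db/+. Without the filter 18 of 23 were called higher and none lower, with a median of 0.67. Mki67, a marker of dividing cells, was at 0.15, 0.08, 0.27, 0.23, 0.23 and 0.16 in db/+ and at 0.84, 2.25, 1.6, 1.9 and 1.35 in 5 db/db PIO libraries. It rose by 1.10 (SE 0.13, adjusted p = 5.05e-06), without overlap. Top2a, which untangles replicated DNA, rose from 0.275 (0.15 to 0.38) to 1.93 (0.62 to 2.16, n = 4), and the mitotic cyclin gene Ccnb2 from 0.345 (0.25 to 0.95) to 1.66 (0.92 to 3.15, n = 4), the latter with overlapping ranges.

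Many promoters of cell cycle genes are known to carry CCAAT boxes, which the factor NF-Y binds, and a further element near the start site that keeps such genes silent outside division. The promoter windows of RefSeq (GRCm38.p6, from 250 bases before to 50 after a gene's start) were searched for CCAAT on both strands. Of the 16 cell cycle genes called higher, 15 had a window, and 13 of these held CCAAT (86.7%), all but Birc5 and Ccne1. It was in 40.1% of the windows of 2792 genes tested and in 37.9% of all 27025 windows. TTTGAA, a core of the second element, was in 8 of the 15 (53.3%), against 11.9% and 18.1%. A match of letters is not a site shown to be bound. Members of the list that were not called were not compared, so these shares describe cell cycle genes and not their change in the nerve. The windows of the 3 genes described above are shown 5′ to 3′ on the strand of the gene, to let the boxes be seen, with each CCAAT or its complement ATTGG in capitals. Mki67 lies at chr7:135716330-135716629, Top2a at chr11:99024140-99024439 and Ccnb2 at chr9:70421505-70421804, all on the minus strand.
Mki67: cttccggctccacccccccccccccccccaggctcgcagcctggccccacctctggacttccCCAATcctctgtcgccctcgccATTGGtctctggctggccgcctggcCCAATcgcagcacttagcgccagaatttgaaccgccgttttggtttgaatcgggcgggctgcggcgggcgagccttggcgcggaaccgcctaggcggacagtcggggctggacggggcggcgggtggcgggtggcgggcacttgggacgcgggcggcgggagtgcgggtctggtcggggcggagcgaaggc
Top2a: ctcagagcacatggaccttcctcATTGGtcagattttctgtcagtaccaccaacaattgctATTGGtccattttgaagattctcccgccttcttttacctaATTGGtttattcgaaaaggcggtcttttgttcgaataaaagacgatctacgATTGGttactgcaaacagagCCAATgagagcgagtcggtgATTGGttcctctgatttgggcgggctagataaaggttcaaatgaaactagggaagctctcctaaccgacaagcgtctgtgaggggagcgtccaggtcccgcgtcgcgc
Ccnb2: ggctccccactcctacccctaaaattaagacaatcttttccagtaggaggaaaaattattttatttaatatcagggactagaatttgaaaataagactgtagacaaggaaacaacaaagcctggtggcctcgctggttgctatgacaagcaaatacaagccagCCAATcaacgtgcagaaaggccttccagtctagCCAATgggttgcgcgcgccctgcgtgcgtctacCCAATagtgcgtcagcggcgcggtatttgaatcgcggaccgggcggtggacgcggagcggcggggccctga
The window of Top2a held 6 such boxes, and those of Mki67 and Ccnb2 held 3 each.

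The untreated db/db nerve showed which of these differences were already present without the drug. The contrasts share libraries, so their values are set side by side and not counted against each other. Of all genes, 14.9% (631 of 4233) were called for db/db against db/+, 10.1% (399 of 3940) for db/db PIO against db/db, and 0.0778% (4 of 5142, with 659 at an unadjusted p under 0.05) for db/+ PIO against db/+.

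Some genes lay near their db/db PIO level in untreated db/db. Igfbp3 was at 35.5 (29.4 to 62.7, n = 5) there, 2.29 above db/+ on the log2 scale (adjusted p = 4.81e-08), and the difference with the drug was 0.35 (SE 0.19, adjusted p = 0.257). Vcan was at 4.33 (3.97 to 5.04, n = 5), with a drug difference of -0.07 (SE 0.09). Crygs, a crystallin gene best known from the lens, was at 5.79 (4.36 to 7.23) in db/+, 1.49 (0.51 to 3.41) in untreated db/db and 1.31 (0.59 to 1.6) with the drug. RP23-433P19.11, a gene model named by its clone, was at 23.9 (21.99 to 25.7), 16.8 (15.8 to 17.8) and 16.5 (15.3 to 18.3). For these genes db/db passed the test against db/+ and the drug difference missed it. The drug difference also missed it for Rgs1 at 0.56 (SE 0.32) and Atp6v0d2 at 0.82 (SE 0.43), though their medians were not near each other. Rgs1 was at 6.255 in db/db and 14.6 with the drug, and Atp6v0d2 at 9.04 and 15.5 (n = 5 each). Mbp, Ngfr and Gfap were also lower in db/db, with drug differences of -0.10, -0.32 and 0.00 (SE 0.09, 0.17 and 0.12) that missed the test.

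Other genes differed in untreated db/db and lay further from db/+ with the drug. Col2a1 was at 1.66 (1.07 to 2.04) in db/db and its drug difference was -0.78 (SE 0.13, adjusted p = 8.30e-04). Shh was at 0.79 (0.69 to 1.87, n = 5) with a drug difference of -0.63 (SE 0.18, adjusted p = 0.0293), and Syt4 at 3.35 (2.42 to 5.06) with one of -0.55 (SE 0.14). Rap2a, at 36.9 (33.3 to 40.5, n = 5), differed from both groups. S100a8 was at 8.18 (5.21 to 88.2) and Ear11 at 2.12 (0.09 to 3.96), with drug differences of 2.25 and 3.45 (SE 0.55 and 0.29, adjusted p = 0.0117 and 6.24e-07). Arg1, at 4.65 (0.95 to 6.35, n = 5), Mmp3, at 2.09 (0.58 to 2.98), Cstb, at 96.7 (77.2 to 138, n = 5), and Mki67, at 0.71 (0.22 to 1.19, n = 5), also passed both tests. Paqr9, a membrane receptor of the progestin and adipoQ family, was at 0.715 (0.39 to 1.92) in db/+, 3.01 (1.61 to 6.67) in untreated db/db and 19.7 (6.97 to 30.4) with the drug, and passed both. In db/+ PIO it was at 3.395 (0.94 to 5.73), near untreated db/db.

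For a further set no difference between db/db and db/+ passed the test, while both db/db PIO contrasts did. Ccrn4l, the clock-controlled nocturnin gene, was at 2.12 (1.72 to 2.57) in db/+, 2.96 (1.75 to 3.76, n = 5) in untreated db/db and 18.3 (8.76 to 23.8, n = 5) with the drug. Its diabetes difference was 0.28 (SE 0.21, adjusted p = 0.395) and its drug difference 2.17 (SE 0.22, adjusted p = 6.12e-06). Aldh1a7, an aldehyde dehydrogenase gene with close copies, was at 1.84 (1.55 to 9.41, n = 5), 5.18 (2.27 to 7.4, n = 4) and 36.4 (13.7 to 50.2). In db/+ PIO, Ccrn4l was at 4.52 (2.29 to 6.37) and Aldh1a7 at 9.155 (2.56 to 15.88). Cox8b and Cidea were at 6.31 (4.92 to 16.1) and 0.57 (0.15 to 0.91, n = 5) in db/db, with drug differences of 3.77 and 3.04 (SE 0.66 and 0.63). In db/+ PIO, Cox8b was 3.05 and Cidea 1.81 above db/+ (adjusted p = 0.0519 and 0.245), neither past the threshold. For Uqcrfs1, Ndufb6, Cox5a and Cycs the diabetes differences were 0.27, 0.04, 0.25 and 0.28, and the drug differences were 0.79, 0.80, 0.60 and 1.31. Ccl8 was at 13.6 (3.36 to 34.7) in db/db, with a drug difference of 2.98 (SE 0.69, adjusted p = 0.00917), and Hk2, Gpx1 and Boc followed the same order of tests. Fabp4 had too few db/+ values for a test against db/+ and so is not part of this set. It was at 3715 (2428 to 8591) in db/db and rose with the drug by 1.44 (SE 0.28, adjusted p = 0.00397).

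A few genes lay between untreated db/db and db/+, or on the far side of db/+. Mcpt4 was at 11.2 (6.83 to 19.03, n = 4) in db/db and Cpa3 at 4.04 (2.53 to 5.69, n = 5), both under db/+. Both were higher in db/db PIO than in db/db, by 1.04 and 0.80 (SE 0.29 and 0.23, adjusted p = 0.03198 and 0.03198). In db/+ PIO, Mcpt4 was at 35.75 (24.97 to 52.08, n = 5), with a median under that of db/+ (68.4). Pou3f1 was higher in db/db than in db/+, at 16.7 (10.4 to 20.7), by 0.47 (adjusted p = 0.0248), and was lower with the drug, at a difference of -0.88 (SE 0.14, adjusted p = 4.17e-04). Hdc, at 0.85 (0.3 to 1.04, n = 5) in db/db, was not called there and rose with the drug by 0.80 (SE 0.16). H2-Eb1, H2-Aa and H2-Ab1 followed neither pattern, with both steps below 0, and neither step passed alone. Their diabetes differences were -0.69, -0.40 and -0.48, and their drug differences -0.74, -0.69 and -0.57.

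**Figure D4:**
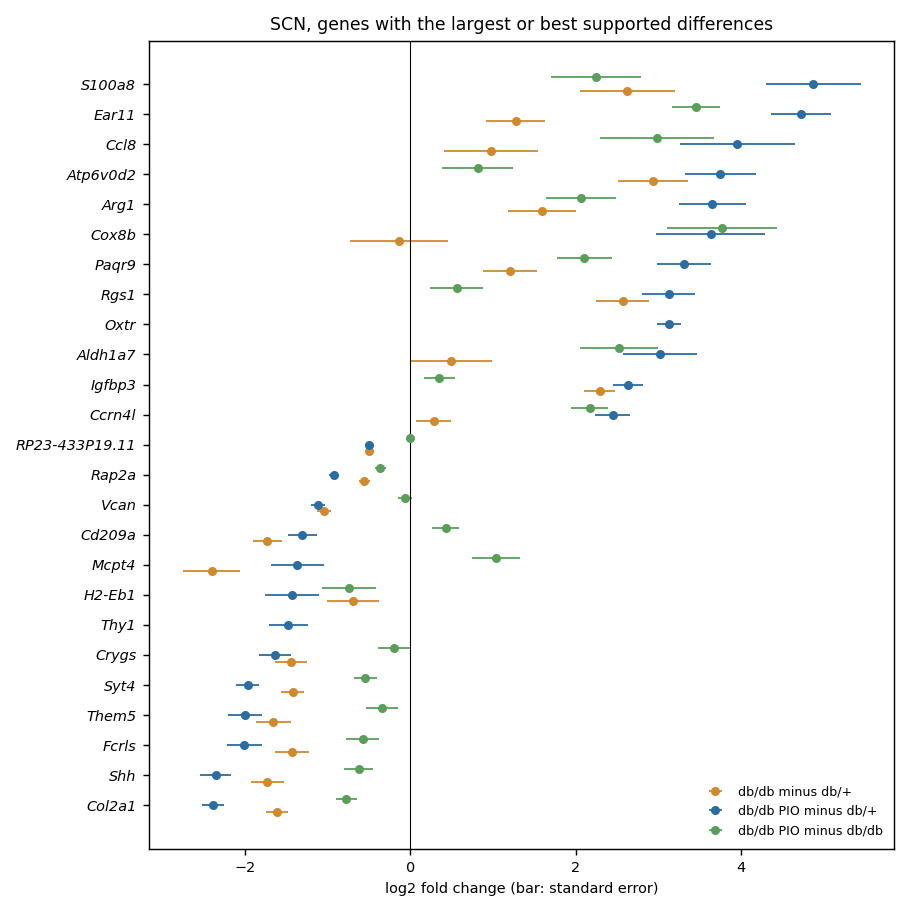
Log2 fold changes in SCN of the 25 genes named for the size or the adjusted p of their change, with bars of 1 standard error, for db/db PIO minus db/+, db/db minus db/+ and db/db PIO minus db/db. Ccrn4l and Cox8b lie near 0 for db/db minus db/+, and Igfbp3 and Vcan near 0 for db/db PIO minus db/db, while Oxtr and Thy1 have too few db/db values for the last 2 contrasts.

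In dorsal root ganglia (DRG), which hold the cell bodies of sensory neurons, the same contrast called 316 of 3920 genes (8.06%). The difference between the tissues was itself tested and passed for 500 of 2388 genes (20.9%). The genes named here were chosen for their calls in SCN, so their share is no independent evidence of a difference. Of 44 that could be compared, 32 differed between the tissues, against 20.9% (500 of 2388) of all genes. The log2 fold change of Igfbp3 was 2.64 in SCN and 0.19 in DRG (SE 0.18 and 0.09). That of Aldh1a7 was 3.02 and -0.02 (SE 0.44 and 0.10), and that of Rap2a -0.92 and -0.04 (SE 0.06 and 0.04). Shh was at -2.36 in SCN and -0.11 in DRG (SE 0.19 and 0.07). These genes passed the test in SCN and not in DRG, and the difference between the tissues passed for each. Them5, a mitochondrial acyl-CoA thioesterase, fell in both, from 62.6 (46.7 to 76.8, n = 4) to 15.1 (8.17 to 21.3) FPKM in SCN, with a difference between the tissues of -1.29 (SE 0.24, adjusted p = 1.23e-04). H2-Eb1, H2-Aa and H2-Ab1 fell in DRG too, with log2 fold changes of -0.88, -0.83 and -0.47 (adjusted p = 0.00225, 0.00829 and 0.0445), and their differences between the tissues missed the test. Fabp4 could be tested in DRG and rose there by 3.25 (SE 0.70, adjusted p = 0.00621).

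**Figure D5:**
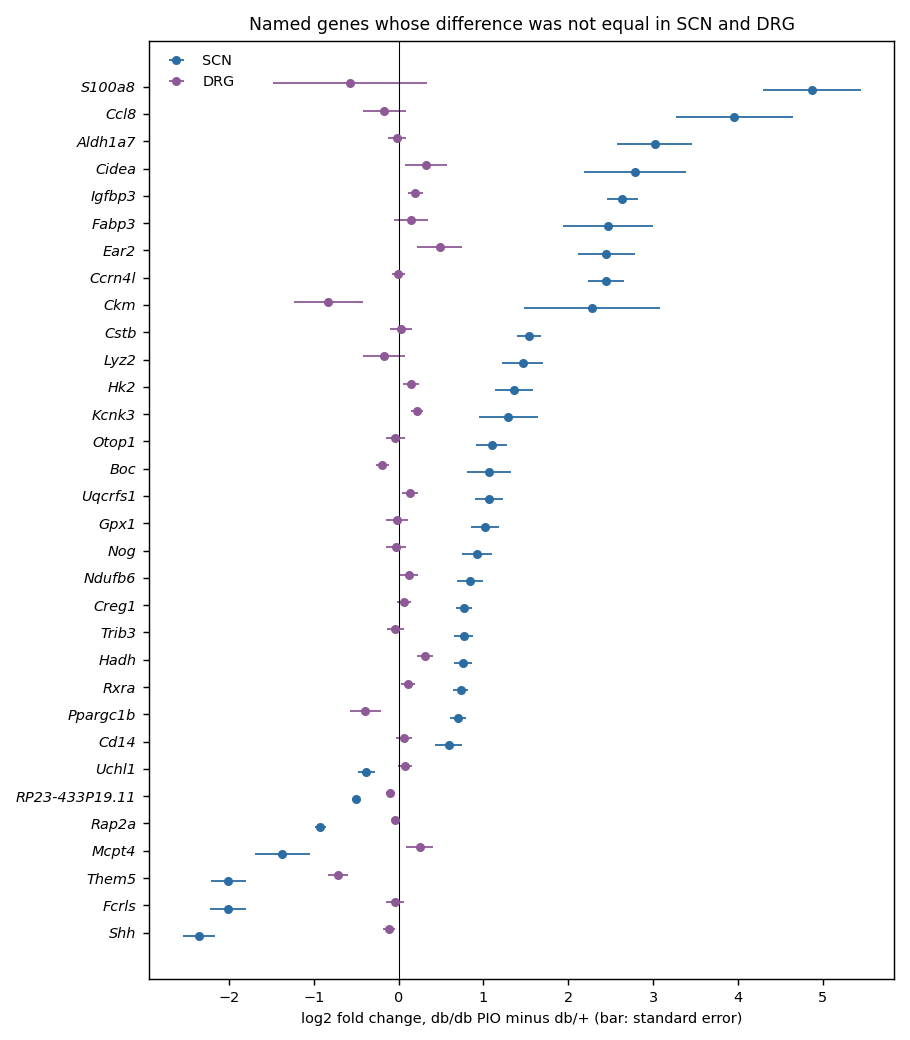
Log2 fold changes of db/db PIO minus db/+ in SCN (blue) and DRG (purple), with bars of 1 standard error, for the 32 named genes whose difference between the tissues passed the test. SCN values run from -2.36 for Shh to 4.87 for S100a8, and DRG values from -0.83 for Ckm to 0.49 for Ear2.

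The values of the groups did not overlap, with db/db PIO above, in 583 of the 4485 genes tested (13%), and with db/db PIO below in 443 (9.88%), which is the background for the genes given above as apart. The reading of a 0 as missing bears on most of the genes named. With each 0 entered as a value, 19 of the 84 tested kept their call. Those higher were S100a8, Ear11, Atp6v0d2, Arg1, Paqr9, Rgs1, Aldh1a7, Igfbp3, Fabp3, Ppargc1b, Ccl3, Mki67 and Nog, and those lower were Col2a1, Syt4, Crygs, Mbp, Ifit1 and Mmp9. The lists moved too. In that setting no complex I, complex II to V, glycolytic or antioxidant gene was called, and their medians were -0.75, -1.18, -1.06 and -0.56, where that of all genes tested was -0.22. Of 12 lipid-associated macrophage genes 1 was called higher and 2 lower (median -1.25), and of 20 cell cycle genes 6 were called higher (median 0.59).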

How the data were processed

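Poly(A) RNA from flash-frozen nerve was sequenced as 1 library per mouse. The authors deposited FPKM values per gene, made with Cufflinks on the mm9 build, and these were used as deposited. Symbols were analysed as listed, and 24 SCN and 23 DRG libraries entered the fits. Exact zeros were set to missing. A gene was kept where 5 or more libraries of the tissue reached an FPKM of 1, and log2(FPKM + 1) was fitted with limma 3.58.1 (R 4.3.3), with 1 mean per group over all SCN libraries, a variance trend and Benjamini-Hochberg adjustment. The tissue difference used both tissues in 1 fit, with each library taken as independent. Named genes were the 10 largest rises and falls that kept their sign with each library left out, the 10 lowest adjusted p-values, and members of the lists. Members and lists were chosen with earlier results of these data known. Replicate numbers did not pair the db/+ with the db/db PIO libraries of SCN, and a pairing of SCN with DRG was not tested. Coordinates of genes are mm9, and promoters are RefSeq's on GRCm38.p6. No 2 libraries held identical values (0 pairs). Some genes counted among those named are not reported here.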

Additional observations from a re-analysis of the deposited data

Results flagged for a closer look

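Single libraries stood apart from the rest of their group in 8 of 155 groups of values of the genes named. The measure was the gap to the nearest library as a share of the group's range (Dixon's test, which chance passes in about 5% of groups). Gap and range were taken on the log2(FPKM + 1) scale, while the values below are FPKM. In db/db PIO, S100a8 was at 217.9 in replicate 6, against 36.3 to 60.3 in the others. Rap2a was at 32.4 in replicate 4, against 26.8 to 28.3, and Sox9 at 2.07 in replicate 2, against 3.34 to 4.1. In db/+, replicate 5 held Rgs1 at 0.92 (others 0.09 to 0.33), Gfap at 4.53 (2.49 to 2.76) and Gli2 at 0.63 (1.58 to 1.81). Uchl1 was at 109.4 in db/+ replicate 6 (81.9 to 88.3), and Ccl9 at 8.89 in replicate 4 (4.33 to 5.18). None of these libraries lay within the range of the other group for its gene.

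The difference between db/db PIO and db/+ was not the same in SCN and DRG for 32 of the 44 named genes that could be compared (limma, test of the difference itself, adjusted p under 0.05), against 20.9% (500 of 2388) of all genes. The named genes were chosen for their calls in SCN in the same libraries, so the count is a description and no independent evidence. Values are the log2 fold change in SCN minus that in DRG. It was above 0 for S100a8 (5.45), Ccl8 (4.12), Ckm (3.11), Aldh1a7 (3.03), Cidea (2.47), Ccrn4l (2.45), Igfbp3 (2.44), Fabp3 (2.32), Ear2 (1.96), Lyz2 (1.63), Cstb (1.51), Boc (1.26), Hk2 (1.22), Otop1 (1.13), Ppargc1b (1.10), Kcnk3 (1.08), Gpx1 (1.03), Nog (0.96), Uqcrfs1 (0.93), Trib3 (0.81), Ndufb6 (0.72), Creg1 (0.71), Rxra (0.62), Cd14 (0.53) and Hadh (0.45). It was below 0 for Shh (-2.24), Fcrls (-1.97), Mcpt4 (-1.62), Them5 (-1.29), Rap2a (-0.88), Uchl1 (-0.45) and RP23-433P19.11 (-0.41).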

How the results depend on the processing

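The 1426 DEGs became 157 with each 0 entered as a value (100 of them the same genes), 780 with at least 5 values per group, 643 with a fold change of at least 1.5 as well (70.14% of them higher, against 55.6%) and 782 without db/db PIO replicates 1, 3 and 5, an alternative chosen after seeing the data. The first rests on how a 0 is read, and the next 3 test fewer genes, ask for more or use fewer libraries. Leaving out 1 library gave 1165 to 1411 DEGs, 53.41% to 58.91% of them higher. Other settings gave 1219 (2 groups only) to 1763 (no filter on low values). The 500 genes that differed between SCN and DRG became 896 without a filter and 13 with zeros as values, and 401 to 526 with 1 library left out.

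With zeros as values 7 log2 fold changes changed sign, to 1.64 for Mcpt4, -0.92 for Rxra, -1.17 for Creg1, -0.24 for Ccl9, -0.33 for Cox5a, -0.99 for Gapdh and -1.68 for Hadh. Without replicates 1, 3 and 5 that of Ckm became -0.11, 61 of 69 named genes that could be tested kept their call, and 8 lost it. Among those, the change went from -0.41 to -0.38 for Pou3f1, -0.83 to -0.70 for Lepr, 0.70 to 0.59 for Cxcl1, 1.29 to 1.09 for Kcnk3, 2.16 to 0.86 for Tcap and 2.79 to 0.89 for Tnnc2. All 84 named calls remained under a pseudocount of 0.1, median-of-ratios rescaling and a variance without a trend. Quantile normalization ended 4, Mbp, Pou3f1 and Gapdh among them, no filter 3, Mbp and Ckm among them, and array weights 2 (Ckm and Tnnc2).

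A fit with the replicate number as a block gave 1327 DEGs and 500 genes that differed between the tissues, and kept all 84 named calls. The block gives each number the same effect in every group, so it is not an effect of the mouse. Same-numbered SCN libraries of db/+ and db/db PIO, which came from different mice, correlated at -0.1715 to 0.1303 over 1035 genes. Of these, 1 of 6 matched its own number best, so the numbers did not pair these groups. Same-numbered SCN and DRG libraries were not compared, and whether they came from the same mouse was not tested. The test between the tissues took all libraries as independent. Read depth per library was not used here, so no limit of detection is given, and a missing value was not read as a level of its gene. Whether zeros went with low levels in some genes was not tested.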
